A study of Mus musculus with 32 samples.

Results

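The organic ion and drug transporters are the gene families *Slc22a*, *Slc47a*, *Slco*, *Abcb*, *Abcc* and *Abcg*. They were taken here by gene symbol from RNA-seq of embryonic mouse kidneys that express a Wilms tumor mutant of ENL, a chromatin reader encoded by *Mllt1* (also called *Enl*). Of 55806 genes in the count tables, 69 carried such a symbol, 67 of them protein-coding and 2 pseudogenes (*Slc22a13b-ps* and *Slco6b1*). All figures on members below are for the 67. The choice used names only and no expression value. Each mutant embryo was heterozygous for a floxed *Enl* allele that gives wildtype ENL until Cre switches it to a mutant form, T1 (an insertion of NHL in the YEATS domain) or T3 (a small deletion, NPP>K). Cre came from *Six2-TGC*, a BAC transgene with GFP-tagged Cre that acts in nephron progenitors and therefore in the epithelium of the nephron, or from *Foxd1-GC*, a GFP-Cre knock-in that acts in stromal progenitors. The knock-in removes the function of the *Foxd1* allele that carries it, in all Foxd1 groups, controls included. The controls (WT) carried the same Cre with 2 unaltered *Enl* alleles. Whole *Six2-TGC* tg/+ kidneys of E18.5 came as WT, T1 and T3 with 2 libraries each, and whole *Foxd1-GC/+* kidneys of E18.5 as WT and T1 with 3 each. Sorted cells, which also carried the LSL-tdT reporter and were collected as tdT+ by flow cytometry, came as Six2 WT and T1 cells of E14.5 and of E18.5 with 3 libraries each and as Foxd1 WT and T1 cells of E18.5 with 4 each. The study used both sexes without giving the sex of each library, and the *Enl* alleles were made in C57BL/6J. The Six2-TGC transgene carries a copy of *Six3* in all Six2 groups, controls included.

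These carriers move drugs, toxins, urate, carnitine, prostaglandins, bile acids and steroid conjugates across membranes. In the kidney most of this traffic passes through the proximal tubule cell, where organic anion and cation carriers of the *Slc22* family at the blood side take a compound up and the MATE exchangers of *Slc47* or ATP-driven pumps of the *Abcb*, *Abcc* and *Abcg* families at the urine side push it out. The *Slc22* anion carriers are late products of proximal tubule maturation and depend on the nuclear receptor HNF4A, while other members of these families work in mitochondria, lysosomes, endothelium, macrophages or smooth muscle.

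Expression is given as CPM (counts scaled to library size, by TMM within each count table) for 1 gene across libraries, and as RPKM (CPM per kilobase of exon) where genes are set side by side. A gene was called changed between genotypes when edgeR's quasi-likelihood test gave a Benjamini-Hochberg adjusted p under 0.05, taken over all genes tested, and the fold change passed 1.5. Library totals ran from 67137194 to 157266455 counts except for sorted Foxd1 cells, which had 2557443 to 3508381. Log2 CPM correlated between replicates of a group at 0.974 to 0.993 over 33 pairs. *Mllt1* itself was read at 27.2 to 241 CPM in all 32 libraries, and gene counts cannot tell the mutant allele from the wildtype one. In whole Six2 kidneys the sex-linked transcripts were male-like in both T1 libraries, female-like in both T3 libraries and mixed in WT, so sex and allele cannot be told apart between T1 and T3. In whole Foxd1 kidneys 4 of the 5 sex-linked genes had no count in any WT or T1 library, as in whole Six2 T3. In sorted Six2 cells of E14.5 the 5 genes summed to 26.3 to 242 CPM in WT and 36.0 to 251 in T1, so libraries within a group differed. The labels do not say whether replicates are separate embryos, so p-values measure the spread between libraries. In bulk RNA fewer cells of a type and less RNA per cell cannot be told apart.

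In whole Six2 WT kidneys at E18.5 the member with most RNA per length was *Slc22a6* (OAT1, the main uptake carrier for organic anions such as drugs and hippurate), at 68.9 ± 16.3 RPKM (mean ± SD, n = 2). Among the leaders of the other families were *Slc47a1* (MATE1, a proton-coupled exporter of organic cations) at 24.8 ± 5.60, *Abcg2* (BCRP, an apical pump for urate and drugs) at 17.4 ± 2.22, *Abcc9* (SUR2, a subunit of ATP-sensitive potassium channels and no transporter itself) at 13.4 ± 1.5, and *Slco1a6* (an organic anion carrier) at 5.88 ± 1.84 RPKM. The order of these leaders depended on the material. Whole Foxd1 WT kidneys, from a separate table, were again led by *Slc22a6* at 82.7 ± 5.01 RPKM (n = 3), and so were sorted Six2 WT cells of E18.5 at 15.9 ± 1.88. Sorted Six2 WT cells of E14.5 were led by *Slc22a17* (a receptor for lipocalin 2) at 23.6 ± 2.64 and *Abcb8* (a mitochondrial pump) at 19.8 ± 0.989 RPKM, with *Slc22a6* at 0.428 ± 0.112. In sorted Foxd1 WT cells *Abcc9* stood at 12.5 ± 1.41, *Abcb8* at 10.4 ± 1.34 and *Slc22a6* at 4.26 ± 3.04 RPKM (n = 4), and the SDs of the first 2 overlap.

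**Figure D1:**
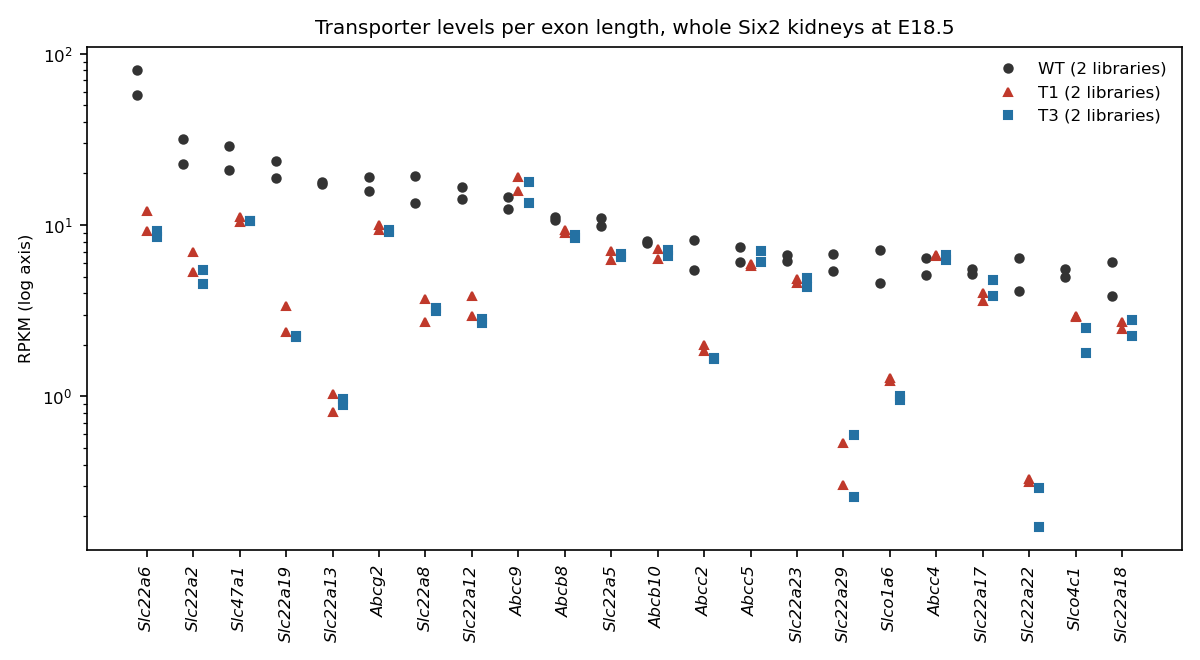
RPKM (log axis) of 22 of the 24 members with the highest mean in WT, in each of the 6 whole Six2 kidney libraries of E18.5, with a marker for each library and a colour for each genotype. Slc22a6 leads in WT at a mean of 68.9 RPKM, and the mutant libraries lie below both WT libraries for Slc22a6, Slc22a8 and Slc22a2 but not for Abcc9.

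The 13 organic anion carriers of *Slc22* had the lowest median fold change of the 10 roles into which the members were sorted, in whole Six2 kidneys of either mutant. Of these, 12 could be tested and all 12 fell in T1 and in T3, with median log2 fold changes of -3.53 and -3.33, beside medians of -0.01 and 0.00 over all 23931 tested genes. The background was 4.88% of all tested genes called lower and 2.88% called higher in T1, and 5.28% lower and 4.34% higher in T3. Their summed RPKM was 143 to 186 in WT, 19.9 to 26.6 in T1 and 19.7 to 19.9 in T3. T1 and T3 were set against the same WT libraries, so their falls are not independent of each other.

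*Slc22a6* read 320.4 and 229 CPM in WT, 37.0 and 48.1 in T1 and 36.8 and 34.1 in T3. Every mutant library was below every WT library by a wide margin, although the WT libraries themselves were far apart (log2 fold change -2.69, SE 0.18, adjusted p = 1.2e-04 in T1, a 6.46-fold fall; log2 fold change -2.95, SE 0.18, adjusted p = 7.7e-05 in T3). *Slc22a8* (OAT3, the second basolateral anion carrier, whose gene lies beside *Slc22a6*) read 75.7 and 52.4 CPM in WT, 10.6 and 14.6 in T1 and 12.9 and 12.3 in T3 (log2 fold change -2.35, SE 0.20, adjusted p = 3.5e-04 in T1; -2.35 in T3). *Slc22a13* (OAT10, an apical carrier of urate and nicotinate) fell from 34.7 and 35.5 CPM to 1.63 and 2.08 in T1 and 1.78 and 1.94 in T3 (log2 fold change -4.25, SE 0.13, adjusted p = 1.1e-05; T3 -4.24). *Slc22a12* (URAT1, the apical urate exchanger) fell by 2.18 on the log2 scale in T1 and by 2.48 in T3, from 37.5 and 32.0 CPM, with 30.1% of its exon bases shared with an overlapping gene.

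The rodent carriers *Slc22a19* and *Slc22a26* to *Slc22a30* lie in 1 cluster on chromosome 19, between 7673061 and 8405111 (GRCm38), and are close in sequence, so how reads were split among them is uncertain. All 6 fell in T1, from -1.57 for *Slc22a26* to -4.25 for *Slc22a30* on the log2 scale, and in T3 from -2.32 for *Slc22a26* to -4.61 for *Slc22a28*. *Slc22a22*, a prostaglandin carrier of the rodent proximal tubule, fell by 4.03 in T1 and by 4.51 in T3. *Slc22a7* (OAT2) was near the limit of detection, with 0.607 and 0.514 CPM in WT and 4 counts over both T1 libraries against 157 in WT (fitted log2 fold change -5.14, SE 0.96, adjusted p = 0.011; T3 -3.03, adjusted p = 0.036, lost in 3 of the 6 fits that left out 1 library). Without T1 replicate 1 the *Slc22a7* and *Slc22a26* calls in T1 missed the threshold, with adjusted p of 0.064 and 0.069. The 13th carrier, *Slc22a20*, had 0 to 4 counts in any library and could not be tested. The pseudogene *Slc22a13b-ps*, beside *Slc22a13* on chromosome 9, gave -3.60 in T1 and -3.27 in T3.

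The stretches upstream of the start are shown for the 2 main anion carriers and for the cation carriers *Slc22a3* and *Slc22a2*, which are neighbours that moved in opposite directions. Each is the 250 bases before the RefSeq start in GRCm38.p6, read 5′ to 3′ on the strand of the gene, with capitals for an exact match to CAAAGTC, the core of an HNF4 site, on either strand. The windows are *Slc22a8* chr19:8592932-8593181 (plus strand), *Slc22a6* chr19:8617746-8617995 (plus), *Slc22a3* chr17:12507705-12507954 (minus) and *Slc22a2* chr17:12583939-12584188 (plus).
Slc22a8: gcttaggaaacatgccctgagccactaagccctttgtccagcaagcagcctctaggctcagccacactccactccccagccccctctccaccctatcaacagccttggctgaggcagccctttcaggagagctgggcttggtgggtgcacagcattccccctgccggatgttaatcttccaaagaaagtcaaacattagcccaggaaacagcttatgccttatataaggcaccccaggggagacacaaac
Slc22a6: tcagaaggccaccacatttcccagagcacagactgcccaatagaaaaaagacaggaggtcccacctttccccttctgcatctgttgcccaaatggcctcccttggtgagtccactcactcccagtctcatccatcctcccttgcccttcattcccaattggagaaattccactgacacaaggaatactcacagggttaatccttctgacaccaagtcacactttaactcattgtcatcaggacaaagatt
Slc22a3: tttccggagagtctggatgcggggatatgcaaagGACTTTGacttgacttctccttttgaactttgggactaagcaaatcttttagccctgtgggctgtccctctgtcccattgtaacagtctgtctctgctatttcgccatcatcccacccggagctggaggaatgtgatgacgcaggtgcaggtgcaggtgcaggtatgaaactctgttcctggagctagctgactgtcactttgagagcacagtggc
Slc22a2: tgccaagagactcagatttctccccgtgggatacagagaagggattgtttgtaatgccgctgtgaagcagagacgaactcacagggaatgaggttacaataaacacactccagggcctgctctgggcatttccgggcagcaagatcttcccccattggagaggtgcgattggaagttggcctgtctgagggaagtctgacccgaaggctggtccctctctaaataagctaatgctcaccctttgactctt

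*Slc22a3* has the reverse complement of CAAAGTC 216 bases before the start, and the other 3 windows shown do not hold it. RefSeq promoter windows (250 bases before to 50 after a start) matched 53 of the 67 members, with 63 windows. CAAAGTC, on either strand, was in 4 of the 63 member windows (6.35%; *Slc22a3*, *Slc22a20*, *Abcb6* and *Abcc5*) beside 4.44% of all 32851 windows. A match describes letters only, and a missing match says nothing about binding.

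Of the 7 organic cation and carnitine carriers of *Slc22*, 6 could be tested, and in whole Six2 kidneys 3 fell in T1, while in T3 4 fell and 1 rose. *Slc22a3* (chr17:12418960-12507704) and *Slc22a2* (chr17:12584132-12628488, both GRCm38) are neighbours on chromosome 17 and encode the polyspecific cation carriers OCT3 and OCT2. *Slc22a3* shares 9.31% of its exon bases with another gene, and *Slc22a2* shares none. *Slc22a2* read 79.1 and 56.7 CPM in WT, 13.3 and 17.3 in T1 and 13.6 and 11.2 in T3 (log2 fold change -2.15, SE 0.19, adjusted p = 4.1e-04 in T1; T3 -2.45). *Slc22a3* did the opposite, at 1.98 and 1.80 CPM in WT, 3.12 and 3.05 in T1 and 4.32 and 2.93 in T3. All 4 mutant libraries were above both WT libraries, and the rise passed the test in T3 (log2 fold change 0.94, SE 0.20, adjusted p = 0.016) but not in T1 (log2 fold change 0.71, SE 0.20, adjusted p = 0.055). Without T3 replicate 1 the T3 call was lost (adjusted p = 0.080). *Slc22a5* (OCTN2, the carnitine carrier) fell by 0.65 in T1 and 0.65 in T3, and *Slc22a4* (OCTN1, an ergothioneine carrier) by 1.25 in T3, with -0.63 (adjusted p = 0.077) in T1.

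**Figure D2:**
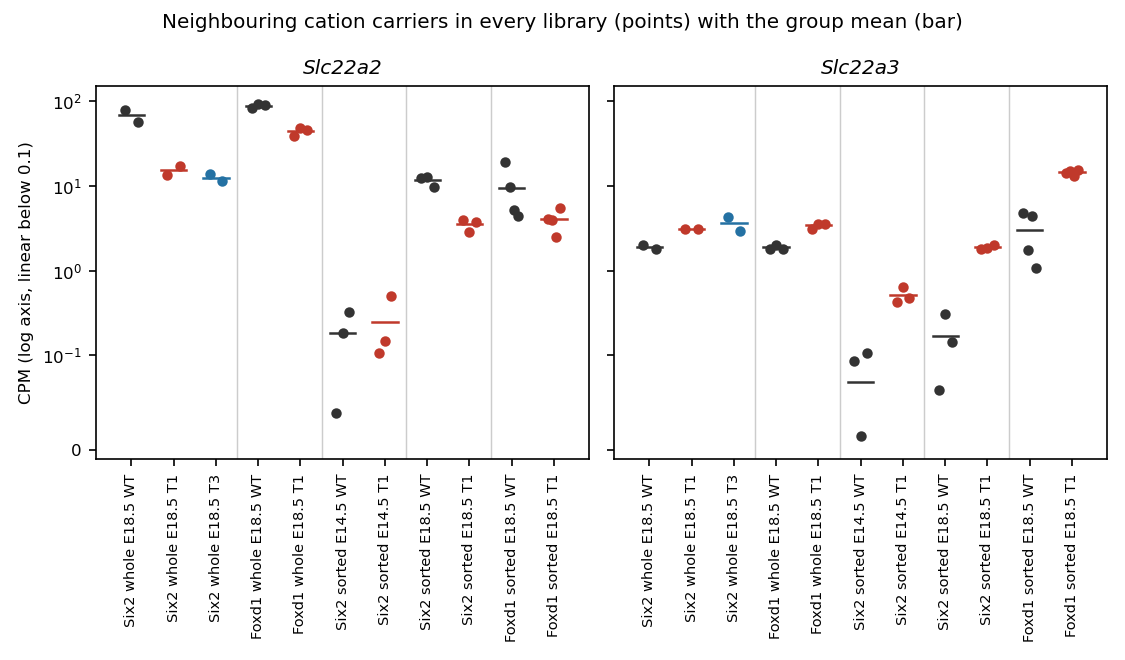
CPM of the neighbouring genes Slc22a2 and Slc22a3 in every library of all 11 groups, on a log axis that is linear below 0.1, with a point for each library and a bar for the group mean. Slc22a3 points lie higher in mutant than in WT libraries in each material, with no overlap in any of the 6 comparisons, while Slc22a2 points lie lower in mutant whole kidneys and in sorted Six2 cells of E18.5. In sorted cells Slc22a3 reached 10 counts in every library only in T1, so it entered those tests through its higher group.

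*Slc47a1* fell from 97.4 and 70.6 CPM in WT to 35.4 and 37.5 in T1 and 35.6 and 35.9 in T3 (log2 fold change -1.20, SE 0.13, adjusted p = 0.0011; T3 -1.23). The fall was smaller than that of the cation uptake carrier *Slc22a2* in the same libraries, though the difference between the genes was not tested. *Slc47a2* (MATE2) was tested and not called in either mutant. Of the 5 remaining *Slc22* members, *Slc22a18* (an imprinted gene of the *Cdkn1c* region) fell by 0.94 in T1 and 0.97 in T3, and *Slc22a14* by 2.32 and 2.74. Both rested on particular libraries: the *Slc22a18* call in T1 was lost without T1 replicate 1, T1 replicate 2 or WT replicate 1 (adjusted p up to 0.17), and the *Slc22a14* calls in 3 of the 6 fits that left out 1 library (up to 0.19 in T1).

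The 14 *Slco* genes encode organic anion transporting polypeptides, sodium-independent carriers of steroid conjugates, thyroid hormones and prostaglandins, and 10 could be tested in whole Six2 kidneys. *Slco1a6* fell from 27.4 and 17.4 CPM to 4.69 and 4.88 in T1 and 3.64 and 3.85 in T3 (log2 fold change -2.23, SE 0.20, adjusted p = 4e-04; T3 -2.58). *Slco4c1*, a basolateral carrier of thyroid hormone and digoxin in the kidney, fell from 24.5 and 27.1 CPM to 14.4 and 14.2 in T1 and 8.76 and 12.2 in T3 (log2 fold change -0.85, SE 0.15, adjusted p = 0.0078; T3 -1.296), the T1 call being lost without T1 replicate 1 or 2 (adjusted p up to 0.077). *Slco2a1*, the prostaglandin transporter, fell in T1 by 0.61 (adjusted p = 0.022, and up to 0.19 without T1 replicate 1) and gave -0.45 (adjusted p = 0.060) in T3. No *Slco* gene rose in whole Six2 kidneys, and the median over the 10 was -0.05 in T1 and -0.01 in T3. Of the 10, 3 were called lower in T1 (30%, beside 4.88% of all tested genes) and 2 in T3 (20%, beside 5.28%).

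Among the ATP-driven pumps, *Abcc2* (MRP2, the apical exporter of glutathione and glucuronide conjugates) fell from 70.0 and 46.5 CPM in WT to 15.6 and 17.1 in T1 and 14.2 and 14.1 in T3 (log2 fold change -1.83, SE 0.17, adjusted p = 5.3e-04; T3 -2.04). *Abcc6*, which supports release of ATP and pyrophosphate, fell by 1.69 in T1 and 1.59 in T3. *Abcg2* fell from 155 and 129 CPM to 76.1 and 81.9 in T1 and 76.2 and 74.3 in T3 (log2 fold change -0.84, SE 0.09, adjusted p = 7.9e-04; T3 -0.91). *Abcc2*, *Abcc6* and *Abcg2* were the only *Abcc* and *Abcg* members called lower in T1, and the other 6 *Abcc* genes, including *Abcc1*, *Abcc3* and *Abcc4*, were not called. *Abcb6*, a porphyrin pump that shares 55.2% of its exon bases with another gene, fell by 0.65 in T1 (adjusted p = 0.040) and 0.69 in T3 (adjusted p = 0.029), and without any 1 of the 6 libraries the T1 call was lost. Small rises were called in T3 for *Abcb4* (a phosphatidylcholine pump, 1.72, adjusted p = 0.034) and *Abcg4* (0.60, adjusted p = 0.015), and these were lost in 5 and 3 of the 6 fits that left out 1 library. *Abcb1a* and *Abcb1b*, which both encode P-glycoprotein in the mouse, were not called in either mutant.

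Over the whole set, 25 of the 60 members that could be tested in whole Six2 kidneys were called lower in T1 (41.7%, beside 4.88% of all tested genes) and none was called higher. At an unadjusted p under 0.05, 7 of the 60 members were higher in T1 and 35 lower, beside 2620 and 3660 of all 23931 tested genes. DESeq2 called 1 member higher and the edgeR exact test 2. T3 gave 25 lower (41.7%, beside 5.28%) and 3 higher (5%, beside 4.34%), and 24 members were lower in both and were drawn against the same WT libraries. The median log2 fold change of the 60 was -0.47 in T1 and -0.38 in T3. At least 10 counts were reached in every library of both groups by 55 of the 60, and a member admitted to the test only through its higher group had to differ.

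T3 against T1 directly gave no called member in either direction, beside 0.00418% of all tested genes called higher (1 gene) and 0% lower. At an unadjusted p under 0.05, 0 members were higher and 3 lower, beside 1172 and 548 of all 23931 tested genes. The median over members was 0.00, and DESeq2 and the edgeR exact test also called none. For *Slc22a6* the difference was -0.26 on the log2 scale (interval of 2 SE either side -0.60 to 0.08), and for *Slc22a3* 0.23 (-0.16 to 0.62).

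**Figure D3:**
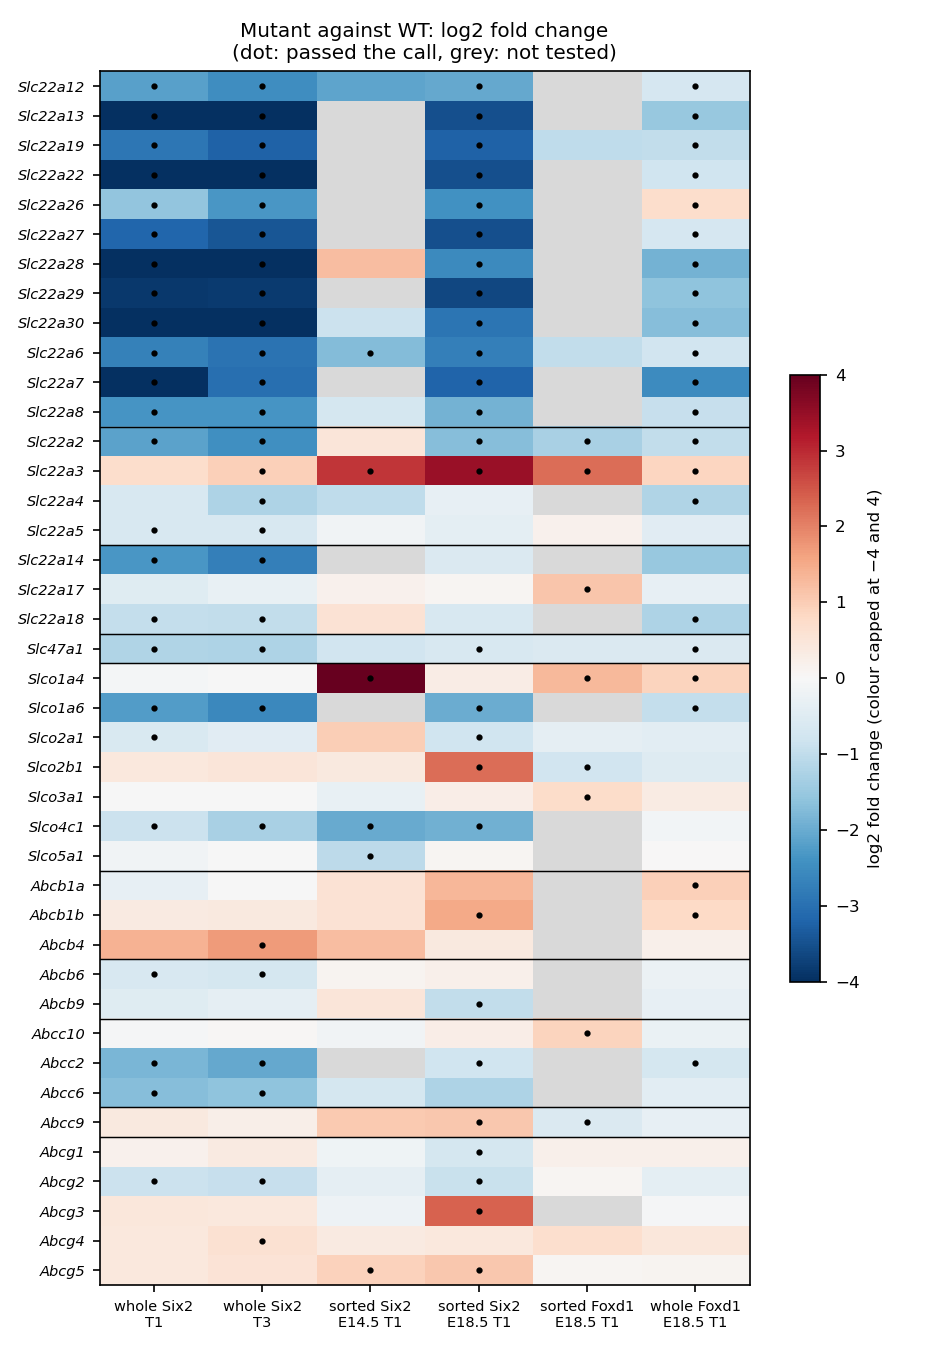
Log2 fold change of mutant against WT for 41 of the 42 members called in at least 1 of 6 genotype comparisons, with members as rows, comparisons as columns, colour from -4 to 4 (values beyond are drawn at the end colours), a dot where called and grey where not tested. The organic anion carriers are lower in the whole kidneys and in sorted Six2 cells of E18.5, apart from Slc22a26 in whole Foxd1 kidneys, and Slc22a3 is called higher in 5 of the 6 columns.

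The loss in whole kidneys was set beside markers of the cells present. The 10 proximal tubule markers (*Lrp2*, *Cubn*, *Slc34a1* and others) summed to 2511 to 3003 CPM in WT, 331 to 424 in T1 and 348 to 369.6 in T3. All 10 fell in both mutants, with median log2 fold changes of -3.51 in T1 and -3.53 in T3, beside -3.53 and -3.33 for the anion carriers. The 5 markers of loop and distal tubule summed to 881 to 963 CPM in WT, 409 to 453 in T1 and 371 to 424 in T3, and the 6 macrophage markers to 91.3 to 94.5, 123 to 138 and 132 to 149. The 5 podocyte markers summed to 859.6 to 967 CPM in WT, 247 to 264 in T1 and 242 to 262 in T3, and the 5 nephron progenitor markers to 133 to 156, 78.9 to 80.8 and 62.8 to 78.4, with all 5 of each list called lower in both mutants. The part of these cells in the fall of the transporters was not tested.

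Sorting of the tdT+ descendants of *Six2* progenitors at E18.5 gave the same question within the lineage that expresses the mutant. There, 22 of 58 tested members were called lower in T1 (37.9%, beside 5.54% of all 22685 tested genes) and 6 higher (10.3%, beside 6.14%), with a median log2 fold change of -0.35 beside 0.02 over all genes. All 12 tested organic anion carriers fell, with a median of -3.06, or -2.82 when *Slc22a7*, under the floor of 3 counts a library in T1, was set at that floor. *Slc22a6* read 65.9, 69.0 and 54.8 CPM in WT and 10.1, 8.55 and 9.72 in T1 (log2 fold change -2.74, SE 0.11, adjusted p = 1.2e-09), and every T1 library was far below the lowest WT library. *Slc22a13* read 7.29, 7.59 and 5.58 CPM in WT and 0.729, 0.677 and 0.360 in T1 (log2 fold change -3.51, SE 0.25, adjusted p = 3.3e-07). *Slc22a8* read 17.5, 21.96 and 18.4 CPM in WT and 5.67, 4.398 and 5.43 in T1 (log2 fold change -1.89, SE 0.13, adjusted p = 3e-07). The other 9 changed by -2.06 (*Slc22a12*) to -3.64 (*Slc22a29*). Of these, *Slc22a7*, *Slc22a22* and *Slc22a26* reached 10 counts in every library in WT alone, so they had to differ.

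In the same cells *Slc22a2* read 12.5, 12.6 and 9.54 CPM in WT and 3.98, 2.86 and 3.69 in T1 (log2 fold change -1.71, SE 0.16, adjusted p = 4.5e-06). Its neighbour *Slc22a3* read 0.0632, 0.305 and 0.142 CPM in WT and 1.78, 1.87 and 2.00 in T1, a 10.99-fold rise (log2 fold change 3.46, SE 0.42, adjusted p = 4.8e-05). At least 10 counts in every library were reached by 51 of the 58 members in T1 and by 52 in WT. With 5, 24 and 10 counts in the WT libraries, *Slc22a3* reached this in T1 alone, and a member admitted only through its higher group had to differ. The exporter *Slc47a1* overlapped between genotypes, at 38.2, 34.5 and 24.2 CPM in WT and 24.5, 18.51 and 18.9 in T1 (log2 fold change -0.64, SE 0.15, adjusted p = 0.0093, lost in 3 of the 6 omissions of 1 library). *Abcc2* read 57.6, 49.5 and 36.6 CPM in WT and 24.4, 29.3 and 28.7 in T1 (log2 fold change -0.80, SE 0.14, adjusted p = 9.7e-04), a fall of 1.74-fold beside 6.67-fold for *Slc22a6*. *Abcg2* read 81.5, 86.4 and 67.8 CPM in WT and 47.4, 37.1 and 42.6 in T1 (log2 fold change -0.89, SE 0.10, adjusted p = 3.2e-05). Lower too were *Slco1a6* (-1.99, adjusted p = 3.1e-05), *Slco2a1* (-0.79, adjusted p = 9.5e-05), *Slco4c1* (-1.93, adjusted p = 0.028, lost in 4 of 6 omissions), the cholesterol exporter *Abcg1* (-0.70, adjusted p = 9.1e-05) and the lysosomal peptide pump *Abcb9* (-0.98, adjusted p = 0.0040).

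Another 5 members rose in sorted Six2 T1 cells of E18.5. *Slco2b1*, an organic anion carrier that macrophages and endothelium also express, read 0.543, 0.229 and 0.468 CPM in WT and 2.19, 2.03 and 1.61 in T1 (log2 fold change 2.24, SE 0.32, adjusted p = 2.4e-04). *Abcc9* read 10.4, 7.73 and 4.74 CPM in WT and 14.6, 18.2 and 15.7 in T1 (log2 fold change 1.09, SE 0.21, adjusted p = 0.0024). The P-glycoprotein gene *Abcb1b* read 1.15, 1.06 and 1.49 CPM in WT and 2.72, 3.95 and 3.96 in T1 (log2 fold change 1.53, SE 0.22, adjusted p = 2.6e-04). For *Abcg3*, a rodent member of the *Abcg* family, the values were 0.227, 0.140 and 0.270 CPM in WT and 1.54, 0.915 and 0.799 in T1 (log2 fold change 2.36, SE 0.40, adjusted p = 9e-04). *Abcg5*, which pairs with *Abcg8* to export sterols, rose by 1.08 (adjusted p = 0.024, lost in 4 of 6 omissions). Markers of other cell types moved in these libraries. The 6 macrophage markers summed to 31.8 to 35.2 CPM in WT and 62.5 to 77.8 in T1, the 5 red cell markers to 104 to 210.2 and 1549.8 to 2273, and the 6 stroma markers to 269 to 493 and 755 to 877. Proximal tubule markers summed to 1373 to 1873 CPM in WT and 433 to 458 in T1, all 10 called lower (median -3.17), and podocyte markers to 2683 to 3166 and 144 to 192. Loop and distal tubule markers summed to 102 to 192 CPM in WT and 60.5 to 110.4 in T1, and nephron progenitor markers to 439.9 to 574 and 178 to 235. The part of these cell types in the transporter changes was not tested.

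At E14.5, before most proximal tubule maturation, only 45 members could be tested in sorted Six2 cells, and 3 were higher and 3 lower in T1 (6.67% each, beside 4.11% and 2.28% of all 22387 tested genes). At least 10 counts in every library were reached by 42 of the 45 in T1 and by 36 in WT. *Slc22a3*, with 12, 2 and 14 counts in the WT libraries, and *Slco1a4*, with 16, 0 and 7, reached this in T1 alone, and a member admitted only through its higher group had to differ. *Slc22a3* was called higher, at 0.0936, 0.0143 and 0.107 CPM in WT and 0.430, 0.638 and 0.474 in T1 (log2 fold change 2.85, SE 0.62, adjusted p = 0.020). The OATP gene *Slco1a4* read 0.125, 0 and 0.0535 CPM in WT and 1.08, 0.565 and 1.45 in T1 (log2 fold change 4.13, SE 0.84, adjusted p = 0.015). *Abcg5* rose by 0.91 (adjusted p = 0.025). These 3 rises were near the threshold: *Slc22a3* lost its call without any 1 of the T1 libraries (adjusted p up to 0.069), *Slco1a4* without T1 replicate 1 or 3 (up to 0.059) and *Abcg5* in 5 of 6 omissions (up to 0.096). *Slco4c1* fell from 2.58, 2.89 and 3.15 CPM to 0.642, 0.769 and 0.711 (log2 fold change -2.01, SE 0.17, adjusted p = 3.1e-04). *Slco5a1*, an orphan member, fell by 1.06 (adjusted p = 0.0011). *Slc22a6* read 1.28, 1.66 and 2.17 CPM in WT and 0.381, 0.892 and 0.266 in T1 (log2 fold change -1.72, SE 0.44, adjusted p = 0.036), a call lost without T1 replicate 1, T1 replicate 3, WT replicate 2 or WT replicate 3 (adjusted p up to 0.12). Only 5 of the 13 organic anion carriers reached the filter, and the summed RPKM of all 13 was 0.576 to 1.31 in WT and 0.420 to 0.479 in T1. Proximal tubule markers summed to 3.99 to 8.05 and 5.62 to 7.56 CPM with 2 of the 10 at 0, stroma markers to 418 to 545 and 833 to 1676, and nephron progenitor markers to 1619 to 1895 and 803 to 994. The part of stroma or progenitor cells in these differences was not tested.

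Between E14.5 and E18.5 many members came on in sorted Six2 cells, with a gene called when adjusted p was under 0.01 and the fold change over 2. In WT, 29 of 60 tested members rose (48.3%, beside 24.8% of all 25222 tested genes) and 5 fell (8.33%, beside 20.6%). In T1, 27 rose (45%, beside 24.4%) and 4 fell (6.67%, beside 19.8%). Only 36 of the 60 had 10 counts in every library at both stages in WT and 40 in T1, so the members that entered the test through E18.5 alone had to rise. E14.5 cells were released with trypsin and E18.5 cells with collagenase, so stage and digestion cannot be told apart.

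All 12 tested organic anion carriers rose in WT, with a median log2 fold change of 5.98 (5.50 when carriers under the floor at E14.5 were set at it), and 10 of them rose in T1 (median 4.76, or 3.36 at the floor). *Slc22a6* went from 1.28, 1.66 and 2.17 CPM at E14.5 to 65.9, 69.0 and 54.8 at E18.5 in WT (log2 fold change 5.21, SE 0.30, adjusted p = 8.6e-10), and from 0.381, 0.892 and 0.266 to 10.1, 8.55 and 9.72 in T1 (log2 fold change 4.22, SE 0.31, adjusted p = 1.4e-08). The T1 libraries of E18.5 were therefore above both genotypes at E14.5 and below every WT library of E18.5. Several carriers were close to absent at E14.5, with 1 count over the 3 WT libraries for *Slc22a26* against 297 at E18.5, 2 against 885 for *Slc22a29* and 4 against 611 for *Slc22a27*. *Abcc2* rose from 0.0234, 0.157 and 0.0764 CPM to 57.6, 49.5 and 36.6 in WT (log2 fold change 9.08, SE 0.36, adjusted p = 1.6e-11) and from 0.0564, 0.00818 and 0.00718 to 24.4, 29.3 and 28.7 in T1. *Slco1b2*, best known from liver, had no count at E14.5 and was at least 7.74-fold higher at E18.5 in WT, by a floor of 3 counts a library.

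Of the cation handlers, *Slc22a2* rose by 5.98 in WT and by 3.80 in T1. *Slc47a1* rose by 3.48 and 3.62. *Slc22a3* rose in T1 (log2 fold change 1.87, SE 0.50, adjusted p = 0.0037, lost in 5 of 12 omissions) and gave 1.25 (adjusted p = 0.078) in WT. *Slco2a1* rose by 4.48 in WT and 2.72 in T1, *Slco1a6* by 5.12 in WT and from 2 to 273 counts over the T1 libraries. *Abcg1* rose by 3.90 and 3.37, *Abcc9* by 2.51 and 2.55 and *Slco5a1* by 1.19 and 2.32. Calls in WT alone went to *Slc22a28* (4.35), *Slc22a7* (2 counts over the WT libraries of E14.5 and 55 at E18.5), *Slco1a4* (3.57), *Slco1a5* (4 counts over the WT libraries of E14.5 and 30 at E18.5), *Abcb9* (1.51), *Slc22a18* (1.31) and *Slc22a23* (1.18). Calls in T1 alone, apart from *Slc22a3*, went to *Slc47a2* (5 counts over the T1 libraries of E14.5 and 89 at E18.5), *Abcc4* (1.44), *Abcb1b* (1.17) and *Slco4a1* (1.14). A call in 1 genotype alone does not show that the genotypes differ, and the difference has its own test, the interaction of stage and genotype. The members that fell were *Slc22a17* (-1.48 in WT, -1.57 in T1), *Abcb8* (-1.37, -1.37), *Slco4c1* (-1.73, -1.64) and *Abcg5* (-1.498, -1.31), with *Abcb6* called in WT only (-1.03). In omissions of 1 of the 12 libraries, the WT calls of *Slco1a5*, *Abcb6*, *Slc22a18* and *Slco4c1* were lost 7, 5, 4 and 2 times and the T1 calls of *Slco1b2* and *Slco4c1* 7 and 4 times.

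**Figure D4:**
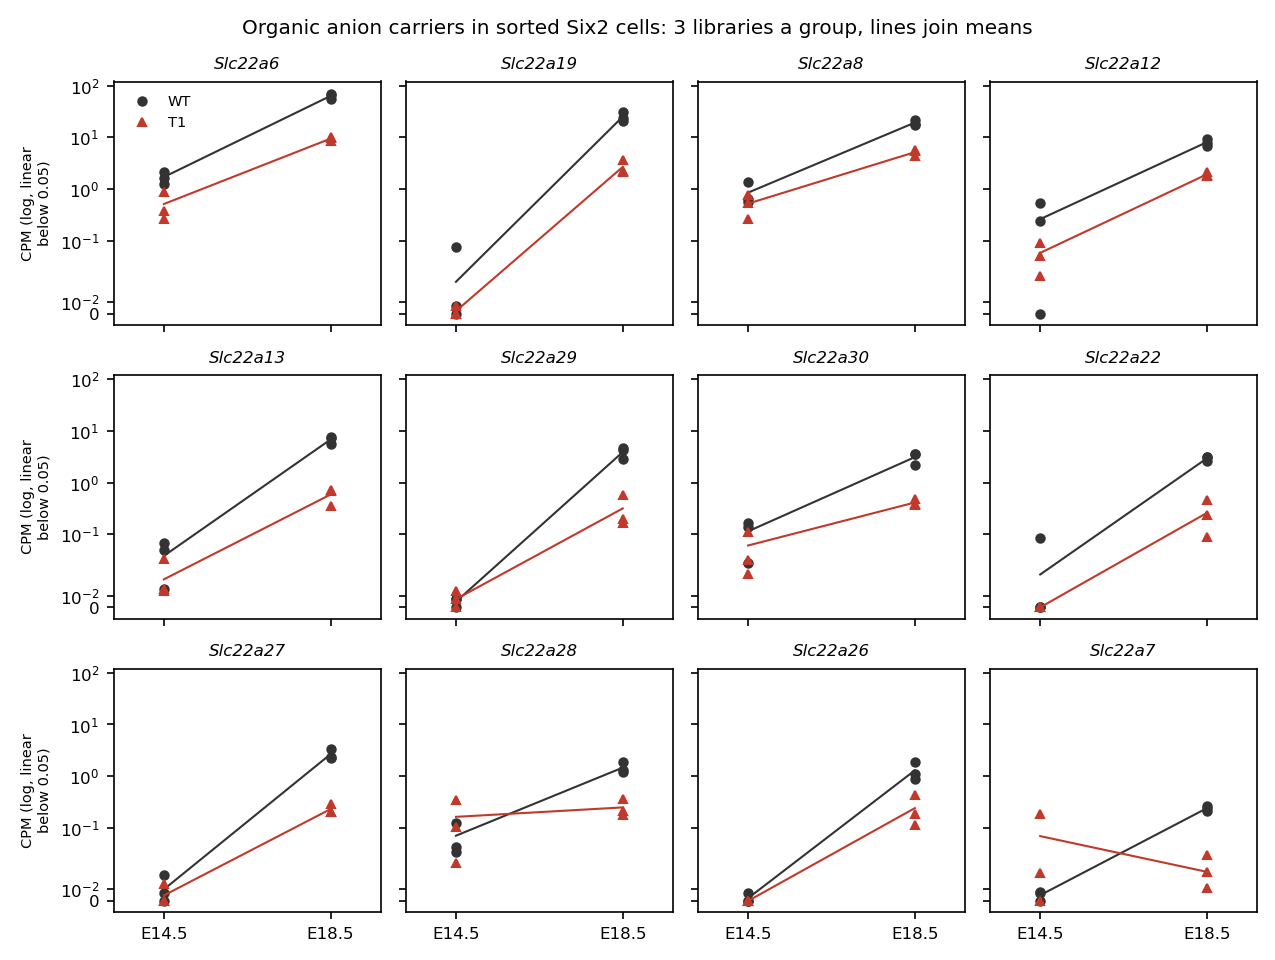
CPM of the 12 tested organic anion carriers in sorted Six2 cells of E14.5 and E18.5, WT and T1, 3 libraries each, on a log axis that is linear below 0.05, with a panel for each gene, a point for each library and lines through the group means. Points rise with stage in both genotypes for most carriers, and at E18.5 the T1 points lie below the WT points in every panel.

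The stage by genotype interaction, called at adjusted p under 0.05 with no fold threshold, passed for 3 members with a T1 effect that was higher at E18.5 than at E14.5 (3.94% of all genes) and 8 with a T1 effect that was lower (4.22% of all genes), of 60 tested. The lower ones included *Slco2a1* (log2 fold change -1.76, SE 0.34, adjusted p = 0.0057), whose T1 effect was -0.79 at E18.5 and 0.98 at E14.5. *Abcb9* (-1.46, adjusted p = 0.0080), *Slco1a4* (-3.83, adjusted p = 0.026), *Slc22a13* (-2.69, adjusted p = 0.044), *Slc22a28* (-3.77, adjusted p = 0.026), *Slc22a7* (-6.75, adjusted p = 0.031) and *Abcg2* (-0.52, adjusted p = 0.035) had the same sign. The higher ones were *Slco5a1* (1.14, adjusted p = 7.2e-04), *Abcc4* (0.90, adjusted p = 0.0010) and *Slco3a1* (0.58, adjusted p = 0.0032). *Slc22a7*, *Slc22a13*, *Slc22a28*, *Abcg2* and *Slco1a4* lost this call in 10, 9, 6, 6 and 4 of 12 omissions, with adjusted p up to 0.18, 0.26, 0.088, 0.081 and 0.065. For *Slc22a3* the interaction was 0.62 (adjusted p = 0.73, interval of 2 SE either side -0.98 to 2.22), and for *Slc22a6* -0.99 (adjusted p = 0.17).

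In Foxd1 kidneys the mutant is expressed in stroma and its descendants, so the tubule cells that use most of these carriers keep wildtype ENL. In whole Foxd1 kidneys 17 of 57 tested members were called lower in T1 (29.8%, beside 7.53% of all 20145 tested genes) and 5 higher (8.77%, beside 2.65%), with a median of -0.33. At least 10 counts in every library were reached by 52 of the 57 in T1 and by 54 in WT. Among the 12 tested organic anion carriers 11 fell and 1 rose, with a median of -0.96 and a summed RPKM of 183 to 204 in WT and 85.1 to 118 in T1. *Slc22a6* read 315, 352 and 321 CPM in WT and 156, 220.3 and 206 in T1, a 1.70-fold fall (log2 fold change -0.76, SE 0.10, adjusted p = 7e-05). *Slc22a8* read 72.3, 76.2 and 69.6 CPM in WT and 30.8, 46.6 and 36.9 in T1 (log2 fold change -0.93, SE 0.11, adjusted p = 2.8e-05). *Slc22a13* read 40.0, 52.2 and 47.5 CPM in WT and 13.7, 19.3 and 15.8 in T1, again without overlap (log2 fold change -1.52, SE 0.12, adjusted p = 6.5e-07). *Slc22a7* fell most on the fitted scale, from 0.960, 1.17 and 1.02 CPM to 0.297, 0.0929 and 0.166 (log2 fold change -2.51, SE 0.38, adjusted p = 2.4e-04). With 20, 7 and 12 counts in the T1 libraries, *Slc22a7* reached 10 in every library in WT alone, so it had to differ. The exception was *Slc22a26*, at 2.07, 1.96 and 2.64 CPM in WT and 2.63, 3.68 and 4.501 in T1, where the groups overlapped (log2 fold change 0.70, SE 0.20, adjusted p = 0.016) and the call was lost without T1 replicate 3, WT replicate 1 or WT replicate 2 (adjusted p up to 0.082). Whole Six2 and whole Foxd1 kidneys came from separate tables and were not tested against each other.

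*Slc22a2* fell in whole Foxd1 kidneys from 82.0, 91.1 and 90.3 CPM to 39.0, 48.1 and 45.1 (log2 fold change -0.99, SE 0.07, adjusted p = 5.7e-07). *Slc22a3* rose from 1.82, 2.02 and 1.78 CPM to 3.12, 3.52 and 3.56 (log2 fold change 0.86, SE 0.15, adjusted p = 7.9e-04). Also lower were *Slc47a1* (-0.59, adjusted p = 4.1e-05, lost in 3 of 6 omissions on the fold threshold), *Slc22a18* (-1.24, adjusted p = 7.2e-07), *Slc22a4* (-1.20, adjusted p = 0.0019), *Slco1a6* (-0.96, adjusted p = 5.2e-05) and *Abcc2*, which read 56.0, 56.0 and 56.2 CPM in WT and 28.3, 42.1 and 32.3 in T1 (-0.71, adjusted p = 2.1e-04). Also higher were both P-glycoprotein genes, *Abcb1a* (0.96, adjusted p = 0.0061) and *Abcb1b* (0.80, adjusted p = 0.012), and *Slco1a4*, from 4.80, 5.96 and 6.16 CPM to 12.1, 10.7 and 8.51 (0.89, adjusted p = 3.1e-04). Proximal tubule markers summed to 2900.5 to 3076 CPM in WT and 1162 to 1509 in T1, with all 10 lower (median -1.22). Loop and distal tubule markers summed to 851 to 934 CPM in WT and 417 to 569 in T1 with 4 of 5 called lower, and nephron progenitor markers to 260.4 to 277 and 399 to 499.9 with 4 of 5 called higher. The part of these cells in the transporter changes was not tested.

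Sorted Foxd1 cells were shallow, 3 counts being worth 0.833 to 1.21 CPM, and 27 members could be tested. T1 had 5 of them higher (18.52%, beside 3.63% of all 12717 tested genes) and 3 lower (11.1%, beside 2.18%). At least 10 counts in every library were reached by 23 of the 27 in T1 and by 22 in WT. *Slc22a3* read 4.72, 1.75, 4.43 and 1.08 CPM in WT and 14.02, 14.96, 13.0 and 15.5 in T1, with no overlap (log2 fold change 2.24, SE 0.29, adjusted p = 3.2e-05), and the call held in all 8 omissions. With 17, 6, 11 and 3 counts in the WT libraries, *Slc22a3* reached 10 in every library in T1 alone. A member admitted only through its higher group had to differ, so the lack of overlap and the omissions are no separate support. *Slco1a4* rose from 10.3, 11.1, 9.68 and 15.2 CPM to 31.4, 32.9, 29.9 and 20.0 (log2 fold change 1.303, SE 0.18, adjusted p = 7.8e-05), with no overlap. *Slc22a17* rose from 17.2, 14.03, 16.5 and 20.6 CPM to 29.5, 38.6, 38.2 and 38.8 (log2 fold change 1.09, SE 0.14, adjusted p = 2.9e-05). *Slco3a1*, a broadly expressed prostaglandin and bile acid carrier, rose by 0.72 (adjusted p = 0.0081). *Abcc10* rose by 0.88 (adjusted p = 0.029, overlapping, lost in 6 of 8 omissions). *Abcc9* fell from 117, 88.6, 106 and 106 CPM to 81.2, 59.2, 68.7 and 68.2 (log2 fold change -0.59, SE 0.10, adjusted p = 7.4e-04), which passed the fold threshold narrowly and lost it in 5 of 8 omissions. *Slco2b1* fell from 23.9, 13.2, 27.8 and 13.4 CPM to 10.3, 10.3, 12.6 and 11.95 (log2 fold change -0.78, SE 0.23, adjusted p = 0.036). For *Slc22a2* the groups overlapped, at 18.9, 9.64, 5.24 and 4.34 CPM in WT and 4.06, 3.99, 2.52 and 5.49 in T1 (log2 fold change -1.29, SE 0.40, adjusted p = 0.046). Both of these falls were lost in 6 of 8 omissions (adjusted p up to 0.11 and 0.22). *Slc22a6* read 33.9, 17.5, 9.27 and 7.23 CPM in the WT and 10.3, 10.3, 7.92 and 7.11 in the T1 libraries, highest in WT replicate 1, and was not called. Proximal tubule markers summed to 140.3 to 385 CPM in WT and 59.0 to 115 in T1, loop and distal tubule markers to 36.5 to 84.4 and 12.2 to 34.3, and macrophage markers to 88.2 to 214 and 219 to 303, and their part in the result was not tested.

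The lineage by genotype interaction over the 14 sorted libraries of E18.5 tested whether the T1 effect differed between Foxd1 and Six2 cells. Of 36 tested members, 6 had a higher effect in Foxd1 cells (8.25% of all 14869 tested genes) and 2 a lower one (7.63%). *Abcc9* fell in Foxd1 cells and rose in Six2 cells (interaction log2 fold change -1.70, SE 0.24, adjusted p = 3.4e-05), and so did *Slco2b1* (log2 fold change -3.03, SE 0.39, adjusted p = 1.1e-05). The higher ones were *Slc22a13* (2.84, adjusted p = 3.3e-04), *Slc22a19* (2.17, adjusted p = 0.0031), *Slc22a6* (1.71, adjusted p = 0.0064), *Slc22a17* (1.02, adjusted p = 1.1e-04), *Abcg2* (0.94, adjusted p = 1.5e-04) and *Abcg1* (0.90, adjusted p = 0.0068). *Slc22a3*, higher in T1 in both lineages, gave -1.20 (adjusted p = 0.15, interval of 2 SE either side -2.29 to -0.11). The lineages differed in Cre line, sequencing depth and read length, which cannot be told apart from lineage here.

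The 21 other genes of the pathway, listed for their role as regulators, scaffolds or exchange partners of these carriers, were read in the same fits. In whole Six2 kidneys 13 of 21 fell and none rose in T1 (61.9% lower, beside 4.88% of all tested genes, median -0.79) and in T3 (61.9%, beside 5.28%, median -0.92). The same counts held for sorted Six2 cells of E18.5 (61.9%, beside 5.54%, median -1.07). At an unadjusted p under 0.05 none of the 21 was higher in T1 whole Six2 kidneys and 15 were lower. Of all 23931 tested genes, 2620 were higher and 3660 lower at that threshold. *Hnf4a*, a nuclear receptor that drives proximal tubule genes, fell by 1.46 in T1, 1.72 in T3 and 1.66 in sorted cells of E18.5. *Pdzk1*, the scaffold that holds apical carriers in the brush border, fell by 2.03, 2.23 and 1.80, and by 0.80 in whole Foxd1 kidneys. *Slc13a3*, which brings in the dicarboxylates that OAT1 and OAT3 exchange, fell by 3.83, 3.81, 2.71 and 1.68 in these 4 comparisons. The apical phosphate and urate carriers *Slc17a1* and *Slc17a3* fell by 3.91 and 3.07 in T1 whole Six2 kidneys. At E14.5 2 of 17 tested were called (11.8%, beside 2.28% of all genes called lower), both lower, among them *Slc9a3r1* (-1.10). In whole Foxd1 kidneys 7 of 20 fell (35%, beside 7.53% of all tested genes) and *Hnf4g* rose (0.64), and in sorted Foxd1 cells *Ahr* rose (0.62) and *Pdzk1ip1* fell (-1.57) of 10 tested (10% each, beside 3.63% of all tested genes called higher and 2.18% lower). From E14.5 to E18.5 16 of the 21 rose in WT and in T1 cells (76.2%, beside 24.8% and 24.4% of all tested genes), and 1 fell in T1 (4.76%, beside 19.8%).

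Over all 6 mutant against WT comparisons, 60 of the 67 members were tested in at least 1. Of these, 31 were called lower in at least 1 (51.7%, beside 12.9% of the 26283 genes tested in any) and 14 higher (23.3%, beside 11.1%), with 3 (*Slc22a26*, *Slco2b1* and *Abcc9*) in both directions. *Slc22a3* was the member called higher most often, in 5 of 6, and in sorted cells it entered the test only through T1. Of the 25 called in none, 7 were never tested in them (*Abcb5*, *Slc22a16*, *Slc22a20*, *Slco1a1*, *Slco1b2*, *Slco6c1* and *Slco6d1*), with at most 16 counts in any library. The other 18 include the mitochondrial pumps *Abcb8* and *Abcb10*, the bile salt pump *Abcb11* and the conjugate pumps *Abcc1*, *Abcc3*, *Abcc4* and *Abcc5*. They also include *Abcc12*, the sulphonylurea receptor *Abcc8*, *Abcg8*, *Slc22a15*, *Slc22a21*, *Slc22a23*, *Slc47a2*, *Slco1a5*, *Slco1c1* and *Slco4a1*.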

How the data were processed

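RNA-seq counts per gene of 32 libraries, in 4 tables, were analysed as deposited. Per the labels and the study's methods, the authors aligned paired reads to mm10 with HISAT2, keeping 1 alignment a read, and made the deposited counts with HTSeq without strand and with no limit on mapping quality, so reads of close gene copies, overlapping genes and antisense partners can be misassigned. Whole kidneys were made into libraries with a stranded mRNA kit and sorted cells with an ultra-low-input SMART-Seq kit. The annotation release behind the counts is not given in the sources used here, and gene IDs were named with GENCODE vM21.

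Groups follow the sample labels. For each fit, genes were kept by edgeR's filterByExpr (minimum count 10, minimum total 15) and scaled by TMM over the libraries of that fit. They were tested with edgeR 4.0.16 quasi-likelihood F tests (R 4.3.3), Benjamini-Hochberg adjusted over all genes tested. The lineage interaction was thus scaled across the Six2 and Foxd1 sorted libraries together, and printed levels were scaled by TMM within a table. Calls between genotypes used thresholds of 0.05 on the adjusted p and 1.5 on the fold, calls between stages 0.01 and 2, and interactions 0.05 alone. The scripts were tested on simulated counts. Members are all symbols of the 6 families. Named with values were every protein-coding member called in a genotype or stage comparison and the highest member per exon length of each family in WT, and the rest are given by counts. A few genes are not reported here by name but stay in all counts. The members, roles, partner genes and marker lists were chosen with earlier results of these data known. The fits have no replicate block. Alternatives were other scalings, filters and fold thresholds, the edgeR exact test, DESeq2 1.42.0, a replicate block, a fit of 2 genotypes alone and each library left out in turn (58 fits). A fit without 1 library is called an omission. With 3 counts as the floor, a fold against libraries without counts is a lower bound. Sequences are RefSeq promoter windows of GRCm38.p6.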

Additional observations from a re-analysis of the deposited data

Results flagged for a closer look

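In sorted Foxd1 T1 cells the *Slc22a17* level of replicate 1, 29.525 CPM, lay apart from the other 3 libraries, which ran from 38.152 to 38.763 CPM. The *Abcb10* level of replicate 4, 16.151 CPM, lay apart from 13.295 to 13.655 in the other 3. Dixon's test was run on 54 groups of 4 libraries, of which chance marks about 1 in 20.

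The T1 effect in sorted Six2 cells differed between E18.5 and E14.5 by edgeR's test of the interaction for 11 of 60 tested members, of which 10 are given. The difference was positive for 5% of the members and negative for 13.3%, beside 3.94% and 4.22% of all tested genes. On the log2 scale (E18.5 effect minus E14.5 effect) the difference was -1.755 for *Slco2a1*, -1.46 for *Abcb9*, -0.5164 for *Abcg2*, -3.826 for *Slco1a4*, -2.691 for *Slc22a13* and -3.771 for *Slc22a28*. *Slc22a7* gave -6.746, with 2 counts over the WT libraries of E14.5 and 6 over the T1 libraries of E18.5. The T1 libraries of E14.5 had 26, 3 and 0 counts of *Slc22a7*, so most of its E14.5 T1 counts came from replicate 1. The difference was 1.139 for *Slco5a1*, 0.9042 for *Abcc4* and 0.581 for *Slco3a1*.

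The T1 effect also differed between sorted Foxd1 and sorted Six2 cells of E18.5 for 8 of 36 tested members (Foxd1 effect minus Six2 effect, edgeR's test of the interaction). It was positive for 16.7% of the members and negative for 5.56%, beside 8.25% and 7.63% of all tested genes. The difference was -3.034 for *Slco2b1* and -1.697 for *Abcc9*, which were called in opposite directions in the lineages. It was 2.842 for *Slc22a13*, 2.171 for *Slc22a19*, 1.711 for *Slc22a6*, 1.016 for *Slc22a17*, 0.9444 for *Abcg2* and 0.8959 for *Abcg1*.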

How the results depend on the processing

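No call changed sign under any alternative, and of 201 member calls 155 kept their side of the threshold in every fit that left out 1 library while 46 were lost in at least 1. Among calls that could still be tested, other scalings, tests and filters cost 0 to 8 each, and the filter of over 1 CPM left a further 24 of the 201 untested. A fold threshold of 2 was applied to the genotype calls alone, of which it cost 38 and kept 79. The mean log2 TMM factor was 0.1015 higher in T1 than in WT in sorted Six2 cells of E18.5, so scaling by library size only shifts all genes up in T1 by about that much there, and by less in the other genotype comparisons with WT. The counts of lower members held within 1.5 times of 25, 25 and 22 in whole Six2 T1, whole Six2 T3 and sorted Six2 cells of E18.5 under every alternative. In whole Six2 kidneys no member was higher in T1, but 1 was with library size only, with genes over 1 CPM only, with DESeq2, with no fold threshold or in a fit of the 2 genotypes alone, and 2 with no low-count filter or the edgeR exact test (0 to 1 without 1 library, 1 without T3 replicate 1, T3 replicate 2 or WT replicate 1). For T3 against WT the 3 higher members became 6 with no fold threshold and 1 at a fold over 2 (0 to 3 without 1 library, 0 without T3 replicate 1), and T3 against T1 gave 1 lower member with no filter. At E14.5 the 3 higher members became 1 over 1 CPM only and 5 with DESeq2 (0 to 6 without 1 library: 0 without T1 replicate 1 or 3, 1 without T1 replicate 2, 6 without WT replicate 3), and the 3 lower ones 7 with no fold threshold (2 to 5 without 1 library, 5 without WT replicate 1). In sorted Foxd1 cells the 5 higher members became 3 at a fold over 2 (3 to 5 without 1 library, 3 without WT replicate 1), and the 3 lower ones 5 with no filter and 1 at a fold over 2 (0 to 3 without 1 library: 0 without WT replicate 1, T1 replicate 2 or T1 replicate 4, 1 without T1 replicate 3). In whole Foxd1 kidneys the 5 higher and 17 lower members became 9 and 29 with no fold threshold and 0 and 7 at a fold over 2. From E14.5 to E18.5 the 5 lower WT members became 9 with no fold threshold and 9 at a fold over 1.5 with adjusted p under 0.05 (3 to 6 without 1 library, 3 without E18.5 WT replicate 2), and the 4 lower T1 members 8 and 7. The stage interaction gave 11 members, and 6 to 12 without 1 library (6 without E18.5 T1 replicate 2, 7 without E18.5 WT replicate 2). Libraries with the same replicate number did not deviate together (correlation of deviations -0.0791 to 0.139 over 19 pairs), and a fit with the replicate number as a block gave 5 lower members in sorted Foxd1 cells in place of 3, cost 9 of the 201 calls and moved no other count by over 1.5 times. The cause of these shifts was not tested. Depth limits sorted Foxd1 cells most, where 27 of the 67 members could be tested.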
